A study of Mus musculus with 6 samples.

Results

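Prostate tumors of mice with an allele coding for a tract of 12 glutamines and an activated β-catenin allele were compared with the prostate of wild type mice, using 4 of the 6 RNA sequencing libraries of the series, 2 libraries of each kind. Members were taken from the sample titles and genotypes. The tumor mice (12Q) were males with an allele that holds a human stretch coding for a tract of 12 glutamines. They also carried 1 Ctnnb1(Ex3)L allele beside a wild type copy, whose loss of exon 3 keeps β-catenin from being degraded, and the PBCre-4 transgene, in which a probasin promoter drives Cre in prostate epithelium. The normal prostates (WT) were labelled wild type and carried none of these alleles. Tumor-free mice with the same alleles were not analysed here, so the effects of the tract, of activated β-catenin and of being a tumor cannot be told apart. The remaining libraries, 2 tumors of the same design with a tract of 48 glutamines (48Q), entered the fit and are used where they show how 12Q tumors differ from another tumor. The labels give no ages, no prostate lobe and no statement that the replicates of a group came from separate mice. P-values therefore describe the scatter among these libraries, and that scatter may be technical. RNA came from whole tissue, so fewer cells of a type and less RNA per cell cannot be told apart in any result.

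Androgens drive the secretory genes of luminal prostate cells. β-catenin is the effector of Wnt signalling: once stable, it enters the nucleus with TCF and LEF factors and turns on target genes, among them inhibitors that feed back on the pathway. The normal gland has secretory luminal cells, a basal layer marked by Trp63, a proximal population near the urethra that expresses stem-like genes such as Ly6a, and a sleeve of smooth muscle.

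The 4 libraries held 26416181 and 28559546 (12Q) and 27082455 and 27882291 (WT) counted reads, over 24091 genes. Levels are CPM, counts scaled to library size with edgeR's TMM factors. They are written 12Q first and WT after "against", each as replicate 1 and replicate 2. After them stand the fitted log2 fold change with its standard error, written "log2", and the adjusted p. The 10 genes with the most reads took 7.68% and 4.498% of the 12Q reads but 29.4% and 31.0% of the WT reads, almost all of it secretory transcripts, and the WT scaling factors were 0.708 and 0.811 against 1.02 and 1.13 in 12Q. Without that scaling the median over all genes moves from -0.01 to 0.485. Then 3266 genes are called higher and 1032 lower, and the share of calls that are higher goes from 50.1% to 76.0%. The libraries of a group were not alike: 976 genes in 12Q and 1024 in WT differed by more than 2 on the log2 scale between the replicates. In 48Q, whose spread also enters the p-values, 101 genes did. Among 15050 genes tested with edgeR's quasi-likelihood test, 1687 (11.2%) were called higher in 12Q and 1683 (11.2%) lower at an adjusted p below 0.05, so 22.4% of all genes tested were called. Of those called, 1126 were more than 4-fold higher and 1062 more than 4-fold lower, 227 and 295 of them more than 64-fold by the fitted value. In each of the 3370 genes called, both 12Q libraries lay on the same side of both WT libraries, as they did, called or not, in 30.1% of all genes on the higher side and 30.4% on the lower side. The share called is the background against which each list below is read. List counts of 1 or 2 members, of which 39 of 43 moved by over 1.5 times when a library was left out, are read as single genes. Every call kept its direction in every alternative fit that was run. With a library left out this largely follows from groups that do not overlap, so it is no separate support.

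**Figure D1:**
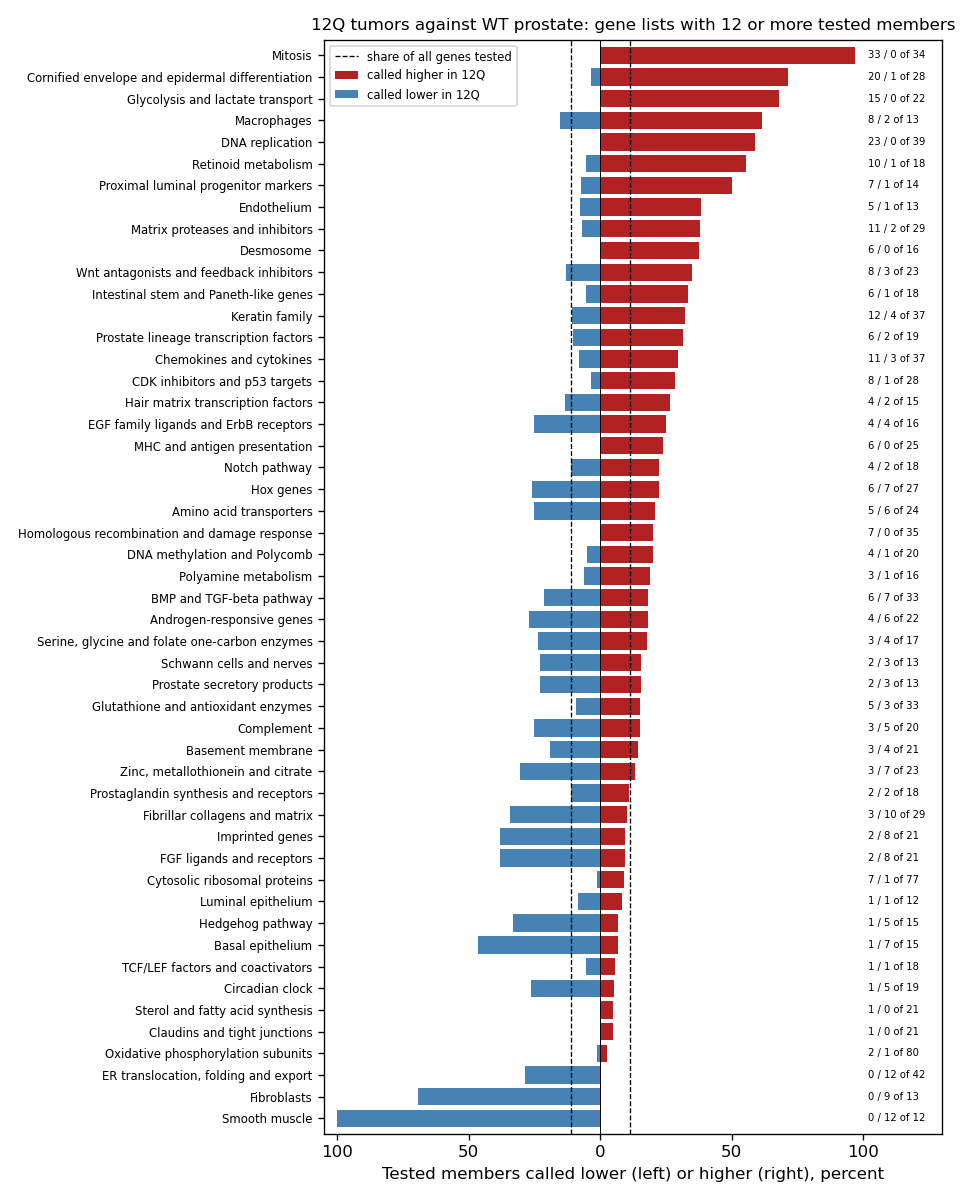
Share of each gene list's tested members called lower (blue, to the left) or higher (red, to the right) in 12Q tumors than in WT prostate, in percent, for lists with 12 or more tested members; the numbers at the right are members higher, members lower and members tested, and the dashed lines mark the 11.2% of all genes called each way. Mitosis, with 33 of 34 members higher, and smooth muscle, with 12 of 12 lower, lie at the ends.

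The gene of the activated allele, Ctnnb1 (chr9:120933400-120960507, mm10), which encodes β-catenin, stood at 958 and 1035 against 669 and 569 CPM (log2 0.69 ± 0.30, adjusted p = 0.1503) and did not pass the test. Both tumors lay above both normal prostates. These are counts over the whole gene, so they do not show the loss of exon 3 and check no label.

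Secretory transcripts of the prostate were much lower in sum. The promoter of probasin (Pbsn), the gene whose promoter drives the Cre transgene and a classical target of androgens, is shown because this gene had the largest fall among genes still counted in both tumors. The sequence is the 250 bases before the transcription start (RefSeq, GRCm38.p6, chrX:77853501-77853750, minus strand, written in the direction of the gene), with matches to AGAACA, a core of the androgen response element, on either strand in capitals.
Pbsn: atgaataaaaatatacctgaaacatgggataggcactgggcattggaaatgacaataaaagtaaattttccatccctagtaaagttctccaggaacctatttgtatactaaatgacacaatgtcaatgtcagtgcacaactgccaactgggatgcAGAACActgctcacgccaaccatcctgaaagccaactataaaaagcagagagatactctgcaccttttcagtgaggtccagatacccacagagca
AGAACA stood in 12.7% of the 11547 tested genes with a RefSeq window from 250 bases before to 50 after the start, and in 4 of the 8 secretory genes of the list with one. The full palindromic element was in none of the windows. Pbsn itself was at 3.33 and 5.14 against 28214 and 16143 CPM (log2 -12.35 ± 1.07, adjusted p = 0.003097). The 48Q tumors kept 3954 and 2248 CPM.

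Secretory products were unequally low, and replicate 2 of 12Q was the lower library for most. Ren2, a renin gene, was at 87.3 and 82.9 against 17583 and 5753 CPM (log2 -7.10 ± 0.98, adjusted p = 0.00773). Apof, an apolipoprotein, was at 5.85 and 3.59 against 53.5 and 39.1 CPM (log2 -3.30 ± 0.44, adjusted p = 0.00733). Both were far below WT in both tumors. Ren2 moved by over 1.5-fold when 1 library was left out, to -6.08 without WT replicate 1 and -7.69 without WT replicate 2. Tgm4, the transglutaminase of the copulatory plug, was at 14538 and 598 against 68614 and 50100 CPM (log2 -2.97 ± 1.50, adjusted p = 0.197), and 9530053A07Rik, the gene with the most reads in the WT libraries, at 4871 and 513 against 245820 and 281020 CPM (log2 -6.61 ± 2.04, adjusted p = 0.0633). The first tumor held many times as much of these as the second, and neither gene passed the test with all libraries. Both passed without 12Q replicate 1, Tgm4 at a log2 of -6.59 (adjusted p = 0.0234) and 9530053A07Rik at -8.96 (adjusted p = 0.044), but without 12Q replicate 2 they stood at -2.03 and -5.76 and did not. Over the list of prostate secretory products, 2 of 13 tested members rose and 3 fell (median log2 0.09), the number that fell being 2 to 7 with 1 library left out, being 7 without 12Q replicate 1. Its tested members summed to 19830 and 1258 CPM in 12Q and 343300 and 347900 in WT. Spink8, a protease inhibitor, was at 18.7 and 4.64 against 96.03 and 118 CPM (log2 -3.20 ± 0.63, adjusted p = 0.0191). Members also moved up: Wfdc15b, an antimicrobial-type secreted protein, was at 11.03 and 7.49 against 0.104 and 0.0442 CPM (ratio 127, exact 95% interval 43.1 to 617, adjusted p = 0.00479), with a WT level close to none. Spink8 moved by over 1.5-fold when 1 library was left out, to -4.48 without 12Q replicate 1 and -2.51 without 12Q replicate 2. Spink8 lost its call without WT replicate 1 or 2 (adjusted p up to 0.0654).

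Of genes known to respond to androgens, 4 of 22 tested members rose and 6 fell (median log2 -0.89), against a median of -0.01 over all genes; the number that rose was 2 to 4 with 1 library left out, being 2 without WT replicate 1. Tmprss2, a serine protease of the luminal surface, was at 358 and 356 against 1174 and 956 CPM (log2 -1.58 ± 0.28, adjusted p = 0.0136). Both tumors lay well below both normal glands, while the list as a whole split. Tmprss2 lost its call without 48Q replicate 1 or 2 (adjusted p up to 0.0625).

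The transcription factors of the prostate lineage were split as well: 6 of 19 tested members rose and 2 fell (median log2 0.08), with the number that fell 2 to 4 with 1 library left out, being 4 without 12Q replicate 1. Spdef, an ETS factor of secretory epithelium, fell from 82.05 and 54.3 CPM in WT to 0.74 and 1.3 in 12Q (log2 -6.05 ± 0.73, adjusted p = 0.00572). The other member that fell was Hoxd13, given below with the Hox genes. Foxp2, a forkhead factor outside this list and among the largest decreases, had no count in either tumor and 25.4 and 23.3 CPM in WT, at least 239-fold lower (adjusted p = 0.00497). Klf5, a zinc finger factor of progenitor and basal-like states, was at 95.5 and 115 against 10.8 and 3.095 CPM (log2 3.93 ± 0.59, adjusted p = 0.00911). Sox4, a progenitor factor, was at 95.3 and 166 against 17.1 and 12.9 CPM (log2 3.12 ± 0.34, adjusted p = 0.004696). Tumor and normal libraries of Spdef, Foxp2, Klf5 and Sox4 did not overlap. Klf5 moved by over 1.5-fold when 1 library was left out, to 5.09 without WT replicate 1 and 3.29 without WT replicate 2.

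**Figure D2:**
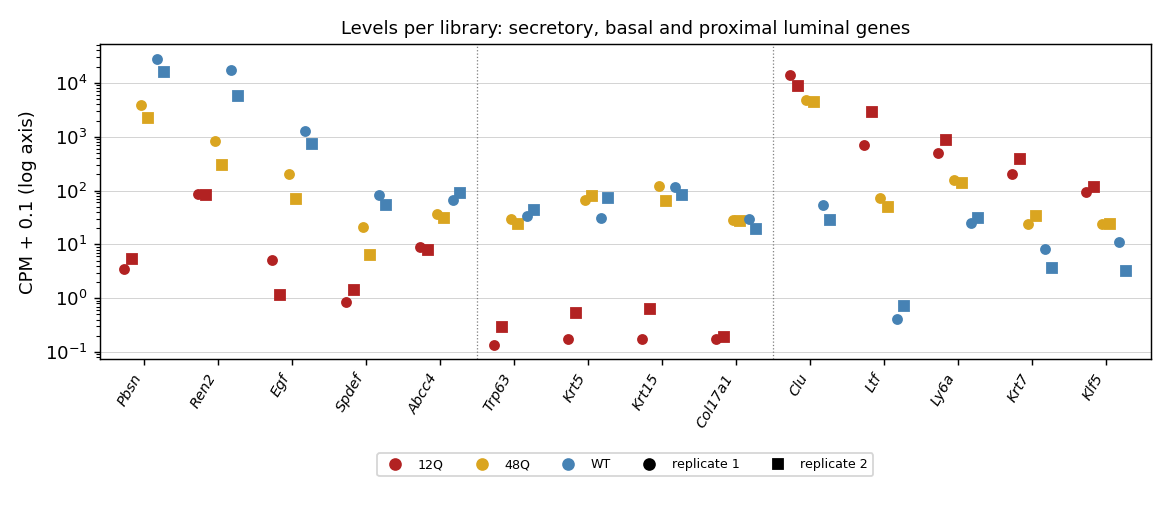
CPM + 0.1 (log axis) in every library for secretory (left), basal (middle) and proximal luminal genes (right); red is 12Q, yellow 48Q, blue WT, circles replicate 1 and squares replicate 2. The genes were chosen with their values known. Secretory and basal genes lie lowest in 12Q, and the proximal genes lie highest there, with Clu at 14194 and 8890 CPM.

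Genes of the proximal luminal population were high in 12Q tumors: 7 of 14 tested members rose and 1 fell (median log2 3.83), and the count higher was 7 to 8 with 1 library left out. Clu, clusterin, a secreted chaperone, was at 14194 and 8889.7 against 53.4 and 28.5 CPM (log2 8.14 ± 0.79, adjusted p = 0.00373) and gained more CPM than any other gene. Ly6a, the surface antigen Sca-1, was at 498 and 874 against 25.4 and 30.3 CPM (log2 4.62 ± 0.38, adjusted p = 0.00294). In both the lowest tumor library was many times the highest normal one. Ppp1r1b, a phosphatase inhibitor, was at 51.1 and 78.02 against 1.04 and 1.46 CPM (log2 5.68 ± 0.54, adjusted p = 0.00353). Ltf, the iron-binding lactotransferrin, was almost absent from WT, with 711 and 2908 against 0.313 and 0.619 CPM (log2 11.89 ± 1.07, adjusted p = 0.00339), and Krt7, a keratin of simple and ductal epithelium, was at 206 and 391 against 8.19 and 3.58 CPM (log2 5.67 ± 0.58, adjusted p = 0.00409). Ltf moved by over 1.5-fold when 1 library was left out, to 12.62 without 12Q replicate 1, 10.54 without 12Q replicate 2 and 12.48 without WT replicate 2, as did Krt7, to 6.38 without WT replicate 1. Gsdma, a gasdermin, was the member that fell, at 182 and 230.2 against 927 and 1049 CPM (log2 -2.26 ± 0.28, adjusted p = 0.00612), and was chosen after its values were seen. Prom1, a membrane glycoprotein on the luminal epithelium list, also fell, at 25.3 and 88.7 against 423 and 392 CPM (log2 -2.84 ± 0.62, adjusted p = 0.0246). Prom1 moved by over 1.5-fold when 1 library was left out, to -2.15 without 12Q replicate 1 and -4.00 without 12Q replicate 2. Prom1 lost its call without WT replicate 1 or 2 (adjusted p up to 0.0758). The 48Q tumors were between WT and 12Q for Ly6a, at 154 and 137 CPM, and for Krt7, at 23.8 and 33.3 CPM, and both genes were called higher in 12Q than in 48Q (log2 2.24 ± 0.35, adjusted p = 0.0297 for Ly6a and log2 3.39 ± 0.51, adjusted p = 0.0289 for Krt7). Ly6a lost its call against 48Q without 12Q replicate 2 or 48Q replicate 1 or 2 (adjusted p up to 0.202) and Krt7 without 12Q replicate 1 or 2 or 48Q replicate 1 or 2 (adjusted p up to 0.165).

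In the basal layer 7 of 15 markers fell and 1 rose (median log2 -1.60). Dst, the dystonin that anchors keratin to the hemidesmosome, was at 58.4 and 42.6 against 998 and 524 CPM (log2 -3.91 ± 0.42, adjusted p = 0.00449). Col4a6, a basement membrane collagen chain, was at 0.148 and 2.51 against 382 and 477 CPM (log2 -8.31 ± 1.23, adjusted p = 0.00884). Trp63, Krt5, Krt15 and Col17a1, which define the layer, were each under 1 CPM in both tumors, as the plot of lineage genes shows. Transcripts that define the basal layer were thus barely counted in these 2 tumors, while the 48Q tumors had 29.6 and 24.2 CPM of Trp63. Col4a6 moved by over 1.5-fold when 1 library was left out, to -7.37 without 12Q replicate 1 and -11.46 without 12Q replicate 2, as did Trp63, to -7.61 without 12Q replicate 1 and -9.85 without 12Q replicate 2.

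The Wnt pathway's own feedback inhibitors are its usual readout, and the list used here joins them with other Wnt antagonists. Of these, 8 of 23 tested members rose and 3 fell (median log2 1.41); the number that rose was 4 to 9 with 1 library left out, being 4 without WT replicate 1, and the number that fell 1 to 3 with 1 library left out, being 1 without 12Q replicate 2. Dkk2, a secreted ligand of the LRP co-receptors, was at 489 and 697 against 0.835 and 2.83 CPM (log2 8.32 ± 0.70, adjusted p = 0.00294), and the 48Q tumors had about the same level, 539 and 626 CPM. Nkd2, an inhibitor that binds Dishevelled, was at 19.02 and 48.7 against 1.2 and 3.05 CPM (log2 3.98 ± 0.67, adjusted p = 0.0119). Sfrp1, a secreted antagonist made largely by stroma, was at 0.222 and 0.557 against 6.31 and 19.8 CPM (log2 -5.03 ± 0.71, adjusted p = 0.00823), while the 48Q tumors had 83.7 and 104 CPM. The mixed list thus did not move as a block. Axin2, a feedback inhibitor and the member with the most reads, was at 471 and 771 against 171 and 173 CPM. Apcdd1, another inhibitor, was called higher (log2 5.65, adjusted p = 0.00823), with a log2 of 4.91 to 7.27 with 1 library left out. Dkk2 moved by over 1.5-fold when 1 library was left out, to 7.71 without WT replicate 1 and 9.46 without WT replicate 2, as did Nkd2, to 3.15 without 12Q replicate 2 and 4.81 without WT replicate 2 and Sfrp1, to -5.85 without 12Q replicate 2, -5.62 without WT replicate 1 and -3.98 without WT replicate 2. The letters CTTTGAT, a TCF/LEF motif, were in 2.65% of all windows around the start and in none of the 13 windows of this list.

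Of the factors that carry the signal in the nucleus few passed: 1 of 18 tested members rose and 1 fell (median log2 0.14). Lef1, which binds β-catenin, was at 16.6 and 26.3 against 2.66 and 5.88 CPM (log2 2.32 ± 0.47, adjusted p = 0.0203). Tle2, a corepressor, was at 4.74 and 3.28 against 15.2 and 45.2 CPM (log2 -2.91 ± 0.59, adjusted p = 0.0201). Lef1 moved by over 1.5-fold when 1 library was left out, to 3.01 without WT replicate 2, as did Tle2, to -1.93 without WT replicate 2. Lef1 lost its call without 12Q replicate 2 or WT replicate 1 (adjusted p up to 0.0685) and Tle2 without 12Q replicate 1 or 2 (adjusted p up to 0.0903). Among genes that Wnt signalling controls in the intestine, in stem and Paneth cells, 6 of 18 tested members rose and 1 fell (median log2 2.18). Ephb3, a receptor that positions crypt cells, was at 22.7 and 60.1 against 0.7302 and 2.21 CPM (log2 4.80 ± 0.72, adjusted p = 0.00936). Sox9, a factor of Paneth and progenitor cells, was at 325 and 278 against 57.8 and 26.04 CPM (log2 2.84 ± 0.44, adjusted p = 0.01002). Mmp7, a secreted protease of Paneth cells, was at 8741 and 3822 against 738 and 513 CPM (log2 3.33 ± 0.60, adjusted p = 0.0152). Smoc2, a matrix protein that marks intestinal stem cells, fell from 33.3 and 118 to 0 and 0.3404 CPM (log2 -8.68 ± 1.14, adjusted p = 0.00695). Defa21, which belongs to the α-defensins of Paneth cells and has near-identical copies, had no count in WT and 29.7 and 36.1 CPM in 12Q, at least 228-fold higher (adjusted p = 0.002701). Ephb3 moved by over 1.5-fold when 1 library was left out, to 3.93 without 12Q replicate 2 and 5.82 without WT replicate 2, as did Sox9, to 3.53 without WT replicate 1 and Mmp7, to 2.66 without 12Q replicate 1 and Smoc2, to -7.73 without 12Q replicate 1, -14.02 without 12Q replicate 2, -9.31 without WT replicate 1 and -7.49 without WT replicate 2. Mmp7 lost its call without WT replicate 2 (adjusted p up to 0.0551). For TCF/LEF factors and coactivators, with 1 library left out, 1 to 3 rose, being 3 without 12Q replicate 1.

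The tumors also made transcripts of stratified epithelium. In the list of cornified envelope and epidermal differentiation genes, 20 of 28 tested members rose and 1 fell. The median log2 was 5.71, or 4.82 with genes absent from a group set at their bound. The number that rose was 10 to 19 with 1 library left out, being 12 without 12Q replicate 2 and 10 without WT replicate 2. The summed level was 794 and 2435 CPM in 12Q and 313 and 54.1 in WT, so the second tumor was the higher and the WT libraries differed as well. Prr9, a proline-rich epidermal protein, was at 2952 and 3018 against 6.16 and 1.24 CPM (log2 9.67 ± 1.20, adjusted p = 0.00605). Sbsn, suprabasin of the upper epidermis, was at 132 and 214 against 3.39 and 8.89 CPM (log2 4.81 ± 0.58, adjusted p = 0.00572). Lor, loricrin of the cornified envelope, was low but higher in both tumors, at 6.62 and 6.34 against 0.104 and 0.177 CPM (log2 5.47 ± 0.68, adjusted p = 0.00612). Tgm3, the transglutaminase that links the envelope, was at 38.6 and 148 against 0 and 0.133 CPM (ratio 1369.5, exact 95% interval 468 to 6643, adjusted p = 0.00618). Prr9 moved by over 1.5-fold when 1 library was left out, to 11.23 without WT replicate 1 and 8.92 without WT replicate 2, as did Sbsn, to 5.67 without WT replicate 2.

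Several of the largest increases had no count at all in WT. Adtrp, an androgen-dependent regulator of a coagulation inhibitor, stood at 39.8 and 27.3 CPM in 12Q, at least 232-fold higher (adjusted p = 0.00298). Crct1, of the epidermal differentiation complex, stood at 11.9 and 34.7 CPM, at least 161-fold higher (adjusted p = 0.00886). Pnpla1, a lipid enzyme of the skin barrier, stood at 9.21 and 36.9 CPM, at least 159-fold higher (adjusted p = 0.0119). Nccrp1, an F-box-associated protein of squamous epithelium, stood at 24.98 and 21.1 CPM, at least 159-fold higher (adjusted p = 0.00793), and Fam25c, whose role is little known, at 28.9 and 34.8 CPM, at least 220.3-fold higher (adjusted p = 0.00337). The replicates were close for Adtrp, Nccrp1 and Fam25c and several times apart for Crct1 and Pnpla1.

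Keratins followed: 12 of 37 tested rose and 4 fell (median log2 3.41, or 0.84 with bounds). Krt80, a keratin linked to desmosomes, was at 185 and 253 against 1.67 and 1.19 CPM (log2 7.26 ± 0.54, adjusted p = 0.002701). Krt23, an acidic keratin of glandular and squamous tissue, was at 500.1 and 424 against 60.9 and 63.9 CPM (log2 2.89 ± 0.25, adjusted p = 0.00294). Both were called higher than in 48Q too, where Krt80 was at 13.5 and 29.7 CPM and Krt23 at 103 and 118 CPM. Krt80 lost its call against 48Q without 12Q replicate 1 or 2 or 48Q replicate 1 (adjusted p up to 0.0935) and Krt23 without 12Q replicate 1 or 48Q replicate 1 or 2 (adjusted p up to 0.181). In the desmosome 6 of 16 members rose and 0 fell; the number that rose was 1 to 7 with 1 library left out, being 3 without 12Q replicate 2 or 48Q replicate 1 or 2 and 2 without WT replicate 1 and 1 without WT replicate 2. Pkp1, the plakophilin of stratified epithelium, was at 50.6 and 152 against 8.502 and 19.5 CPM (log2 2.85 ± 0.68, adjusted p = 0.03101). Of claudins and tight junction genes 1 of 21 rose and 0 fell. Pkp1 moved by over 1.5-fold when 1 library was left out, to 3.49 without 12Q replicate 1, 1.85 without 12Q replicate 2 and 3.58 without WT replicate 2. Pkp1 lost its call without 12Q replicate 2 or WT replicate 1 or 2 (adjusted p up to 0.123).

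Transcription factors of skin appendages were present. Sp6, a zinc finger factor of tooth and hair development, went from 0.209 and 0.531 CPM in WT to 389 and 460 in 12Q (log2 10.12 ± 0.54, adjusted p = 0.00256), with 48Q at 97.3 and 144. Dlx3, a homeobox factor of hair and placenta, was at 64.7 and 114 against 0.156 and 0.398 CPM (log2 8.28 ± 0.60, adjusted p = 0.002701). Bambi, a decoy receptor for BMP and TGFβ ligands, was at 92.9 and 72.05 against 5.01 and 6.898 CPM (log2 3.79 ± 0.46, adjusted p = 0.00571). In the list of hair matrix transcription factors, 4 of 15 tested members rose and 2 fell (median log2 0.08), so most members did not move past the threshold. The number that rose was 2 to 7 with 1 library left out, being 7 without 12Q replicate 1 and 2 without 12Q replicate 2 or 48Q replicate 1 or 2. Among enamel and tooth matrix genes 2 of 7 tested rose. Sp6 moved by over 1.5-fold when 1 library was left out, to 10.96 without WT replicate 2, as did Dlx3, to 9.12 without WT replicate 2. For enamel and tooth matrix genes, with 1 library left out, 1 to 3 rose, being 1 without 12Q replicate 2 or WT replicate 1 or 2.

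Division genes were high throughout. Of the mitosis list 33 of 34 tested members rose and 0 fell (median log2 3.65), and the count was 28 to 33 with 1 library left out. Its summed level was 1021 and 1437 CPM in 12Q and 144 and 144 in WT. The promoter of Ect2, the exchange factor that starts cytokinesis, is shown as an example of the motif that many of these promoters share (250 bases before the start, RefSeq, GRCm38.p6, chr3:27153879-27154128, minus strand, in the direction of the gene). Capitals mark matches to TTTGAA, the cell cycle homology region, on either strand.
Ect2: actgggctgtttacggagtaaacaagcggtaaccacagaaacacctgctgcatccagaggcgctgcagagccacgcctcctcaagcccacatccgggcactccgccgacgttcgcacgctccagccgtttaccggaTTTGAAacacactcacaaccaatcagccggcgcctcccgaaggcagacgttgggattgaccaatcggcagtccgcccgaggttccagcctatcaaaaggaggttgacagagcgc
TTTGAA was in the window from 250 bases before to 50 after the start of 21 of 28 mitosis genes with a window (75%), and of 12.3% of all 11547 genes. In the 250 bases before the start alone it was in 10 of the 28 (35.7%) and in 10.9% of all. Ect2 was at 26.2 and 36.4 against 1.98 and 2.03 CPM (log2 3.96 ± 0.39, adjusted p = 0.00391). Tpx2, which nucleates spindle microtubules, was at 38.9 and 60.2 against 2.82 and 2.83 CPM (log2 4.13 ± 0.43, adjusted p = 0.00416). Kif2c, a microtubule depolymerase of the kinetochore, was at 13.2 and 19.1 against 0.522 and 0.398 CPM (log2 5.13 ± 0.52, adjusted p = 0.00398). Kif20a, a kinesin of the central spindle, was at 34.9 and 46.5 against 2.97 and 2.96 CPM (log2 3.78 ± 0.35, adjusted p = 0.00353). The WT replicates were nearly equal for these genes and each tumor was far above them.

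In DNA replication 23 of 39 members rose and 0 fell (median log2 1.65), but this count rested on single libraries: it was 8 to 25 with 1 library left out, being 10 without 12Q replicate 2 and 9 without 48Q replicate 1 or 2 and 8 without WT replicate 1. Mcm5, a subunit of the replicative helicase, was at 49.2 and 69.5 against 3.23 and 7.83 CPM (log2 3.42 ± 0.50, adjusted p = 0.00869). Mcm6, another subunit, was at 88.5 and 122 against 13.5 and 26.7 CPM (log2 2.39 ± 0.38, adjusted p = 0.0109). Rrm2, the small subunit of ribonucleotide reductase, was at 41.5 and 40.5 against 9.702 and 9.42 CPM (log2 2.10 ± 0.30, adjusted p = 0.00823), with almost equal levels in the tumors and in the normal glands. Of homologous recombination and damage response genes, 7 of 35 rose and 0 fell; the number that rose was 0 to 11 with 1 library left out, being 2 without 12Q replicate 2 and 4 without 48Q replicate 1 or 2 and 0 without WT replicate 1 and 11 without WT replicate 2. Brca1, of the repair of double-strand breaks, was at 16.2 and 29.9 against 1.67 and 4.24 CPM (log2 2.96 ± 0.60, adjusted p = 0.0203). Mcm5 moved by over 1.5-fold when 1 library was left out, to 4.20 without WT replicate 2, as did Brca1, to 3.79 without WT replicate 2. Brca1 lost its call without 12Q replicate 2 or WT replicate 1 (adjusted p up to 0.0712).

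Brakes on division were partly higher: 8 of 28 tested members rose and 1 fell (median log2 0.34); the number that rose was 4 to 8 with 1 library left out, being 4 without 12Q replicate 2 and 5 without 48Q replicate 1 or 2 or WT replicate 1. Cdkn2a, whose products are p16 and p19Arf, was at 26.1 and 6.78 against 0.0522 and 0 CPM (ratio 651, exact 95% interval 117 to 25757, adjusted p = 0.00867). Phlda3, a p53 target that inhibits Akt, was at 70.2 and 44.7 against 6.21 and 10.6 CPM (log2 2.77 ± 0.41, adjusted p = 0.00867). Trp53 itself was at 90.5 and 104 against 22.4 and 38.5 CPM (log2 1.68 ± 0.30, adjusted p = 0.0149), while Mdm2, the ligase that degrades p53, was at 50.6 and 49.5 against 96.8 and 107 CPM (log2 -1.03 ± 0.20, adjusted p = 0.0172). Trp53 lost its call without 12Q replicate 2 (adjusted p up to 0.052) and Mdm2 without 48Q replicate 1 or 2 (adjusted p up to 0.0731). In the Polycomb and DNA methylation list, Ezh2, the H3K27 methyltransferase, was at 42.9 and 43.9 against 12.05 and 14.5 CPM (log2 1.71 ± 0.26, adjusted p = 0.00961). Bmi1, of the other Polycomb complex, was at 25.7 and 17.4 against 98.8 and 56.7 CPM (log2 -1.85 ± 0.35, adjusted p = 0.0171). Bmi1 lost its call without 12Q replicate 2 (adjusted p up to 0.0675). That list had 4 higher and 1 lower of 20 tested. For DNA methylation and Polycomb, with 1 library left out, 1 to 4 rose, being 1 without 12Q replicate 2 and 2 without WT replicate 1.

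Glycolysis genes were higher in 12Q tumors than in normal prostate and, with all libraries, than in 48Q tumors. Of 22 genes, 15 rose against WT and 0 fell (median log2 1.69), the number that rose being 11 to 17 with 1 library left out. In the direct test against 48Q, where 1.01% of all genes were called higher, 12 of the 22 were higher in 12Q, but this count was 3 without 12Q replicate 1, 2 without 12Q replicate 2 and 0 without 48Q replicate 1 or 2. Summed levels were 5234 and 6270 CPM in 12Q and 1742 and 1594 in WT. Pfkl, the liver-type phosphofructokinase, was at 231 and 294 against 28.1 and 31.6 CPM (log2 3.14 ± 0.24, adjusted p = 0.002701), with 48Q at 47.5 and 51.8 (log2 2.40 ± 0.24, adjusted p = 0.0165 for 12Q against 48Q). Gpi1, the isomerase of the pathway's second step, was at 433 and 411 against 159 and 136 CPM (log2 1.52 ± 0.23, adjusted p = 0.009596), with 48Q at 129 and 129. Pfkl lost its call against 48Q without 48Q replicate 1 or 2 (adjusted p up to 0.114). Both tumors with 12 glutamines lay above all 4 other libraries in both genes. Gapdh and Eno1, enzymes of this pathway that are usually abundant, were listed at under 3 CPM in every library; how reads that map to their many pseudogenes were counted is not given in the sources used here.

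A pair of promoters of this group are shown because both genes rose and both carry ACGTG, the core of the hypoxia response element (capitals, either strand; 250 bases before the start, RefSeq, GRCm38.p6, in the direction of the gene). Slc16a3 (chr11:120948817-120949066, plus strand) encodes the lactate exporter MCT4, and Pgk1 (chrX:106186850-106187099, plus strand) a phosphoglycerate kinase.
Slc16a3: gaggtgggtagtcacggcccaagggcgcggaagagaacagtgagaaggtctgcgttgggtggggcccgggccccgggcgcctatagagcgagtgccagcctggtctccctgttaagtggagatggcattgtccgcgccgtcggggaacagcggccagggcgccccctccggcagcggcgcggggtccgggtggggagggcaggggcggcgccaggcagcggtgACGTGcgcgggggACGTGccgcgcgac
Pgk1: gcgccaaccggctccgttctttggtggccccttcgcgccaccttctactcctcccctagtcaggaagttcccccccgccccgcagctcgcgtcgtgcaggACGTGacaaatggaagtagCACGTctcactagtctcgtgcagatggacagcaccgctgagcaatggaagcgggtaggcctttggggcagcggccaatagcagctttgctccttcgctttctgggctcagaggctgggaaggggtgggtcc
ACGTG was in 24.7% of all windows reaching 50 bases past the start and in 11 of 21 windows of the list (52.4%); in the part before the start it was in 20.9% of all and in 9 of the 21. Slc16a3 was at 63.97 and 147 against 0.522 and 0.575 CPM (log2 7.57 ± 0.56, adjusted p = 0.002701), against 4.25 and 5.05 CPM in 48Q (log2 4.50 ± 0.46, adjusted p = 0.0165). Pgk1 was at 37.7 and 51.96 against 11.5 and 8.98 CPM (log2 2.13 ± 0.30, adjusted p = 0.00823), against 9.82 and 9.87 in 48Q. The 48Q libraries lay within the WT range for Pgk1. Slc16a3 moved by over 1.5-fold when 1 library was left out, to 6.85 without 12Q replicate 2. Slc16a3 lost its call against 48Q without 48Q replicate 1 or 2 (adjusted p up to 0.0886).

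**Figure D3:**
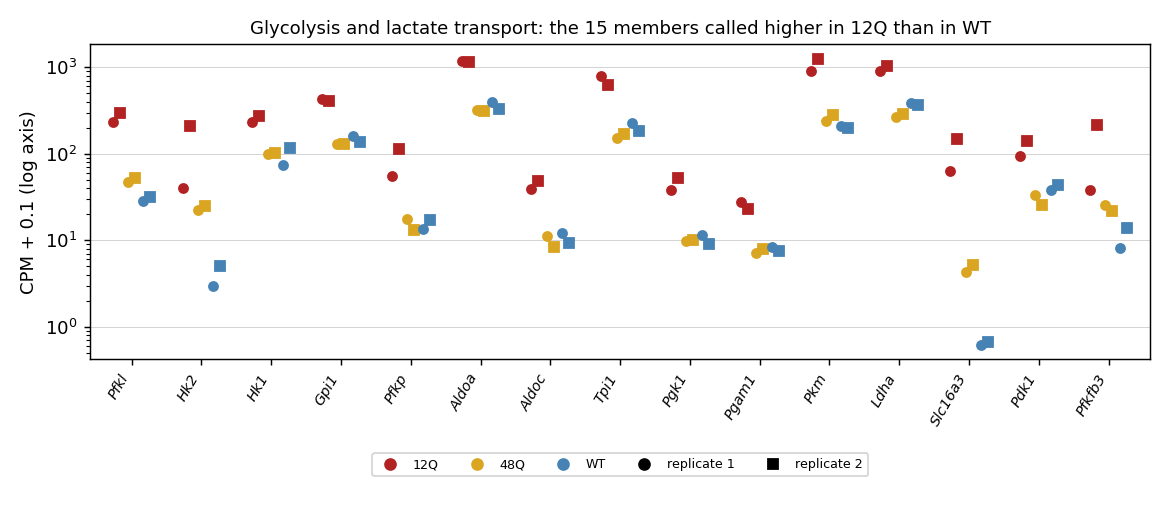
CPM + 0.1 (log axis) in every library for the 15 glycolysis and lactate transport genes called higher in 12Q than in WT, chosen for that call; red is 12Q, yellow 48Q, blue WT, circles replicate 1 and squares replicate 2. The 12Q libraries are uppermost for each gene, and for Hk2 and Pfkfb3 the second 12Q tumor is far above the first.

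The largest increases over 48Q included Egln3, Apln, Angpt2 and Esm1, genes of the oxygen response or of vessels. They were picked for being high in 12Q. The levels and tests that follow are against WT, and calls against 48Q rest on single libraries, as given below. No list of genes induced by low oxygen was made, so no share of such genes is given. Egln3, a prolyl hydroxylase that marks HIF for degradation, was at 48.4 and 379 against 2.71 and 3.67 CPM (log2 6.06 ± 1.02, adjusted p = 0.01202) and differed between the tumors. Apln, apelin, a peptide made by sprouting vessels, was at 68.7 and 80.7 against 0.0522 and 0.265 CPM (log2 8.78 ± 0.84, adjusted p = 0.00353). Angpt2, a vessel-destabilising ligand, was at 30.9 and 53.6 against 11.5 and 10.5 CPM (log2 1.94 ± 0.42, adjusted p = 0.0239). Esm1, a proteoglycan of endothelial tip cells, was at 52.8 and 64.7 against 0.156 and 1.11 CPM (log2 6.50 ± 0.83, adjusted p = 0.00634). Oxygen was not measured, and its part in these levels was not tested. Egln3 moved by over 1.5-fold when 1 library was left out, to 6.93 without 12Q replicate 1 and 3.92 without 12Q replicate 2, as did Apln, to 8.12 without WT replicate 1 and 10.37 without WT replicate 2 and Esm1, to 5.73 without WT replicate 1 and 8.51 without WT replicate 2. Egln3 lost its call without WT replicate 1 or 2 (adjusted p up to 0.0727) and Angpt2 without 12Q replicate 2 or WT replicate 1 or 2 (adjusted p up to 0.0865).

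Respiration genes did not follow glycolysis: 2 of 80 tested members rose and 1 fell (median log2 0.07). Among cytosolic ribosomal proteins, 7 of 77 tested members rose and 1 fell (median log2 0.62); these have near-identical pseudogenes, so single members are uncertain. The number of them that rose was 2 to 10 with 1 library left out, being 2 without 12Q replicate 1, 48Q replicate 1 or 2 or WT replicate 2. For oxidative phosphorylation subunits, with 1 library left out, 1 to 4 rose, being 4 without 12Q replicate 2 and 1 without 48Q replicate 1 or 2 or WT replicate 1 or 2.

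Prostate epithelium accumulates zinc and secretes citrate, and in this list 3 of 23 tested members rose and 7 fell (median log2 0.19), the number that fell being 4 to 5 with 1 library left out, being 4 without 12Q replicate 1 or 2. Mt1 and Mt2, metal-binding metallothioneins, were at 127 and 62.6 against 1115 and 579 CPM (log2 -3.16 ± 0.51, adjusted p = 0.0112) and at 89.1 and 49.5 against 1000 and 486 CPM (log2 -3.42 ± 0.49, adjusted p = 0.00821). The zinc importer Slc39a4 was at 227 and 239 against 9.55 and 24.9 CPM (log2 3.76 ± 0.47, adjusted p = 0.00612) and the zinc exporter Slc30a4 at 78.9 and 127 against 24.1 and 21.9 CPM (log2 2.16 ± 0.29, adjusted p = 0.00723). These metallothioneins and these transporters moved in opposite directions. In polyamine metabolism, another secretory activity of the gland, 3 of 16 tested members rose and 1 fell (median log2 -0.26). Sms, spermine synthase, was at 3.88 and 3.68 against 38.2 and 32.1 CPM (log2 -3.22 ± 0.33, adjusted p = 0.00416). Arg1, arginase, which makes the precursor ornithine and is also high in some macrophages, was at 45.8 and 96.4 against 5.63 and 4.2 CPM (log2 3.85 ± 0.44, adjusted p = 0.00503). Mt2 moved by over 1.5-fold when 1 library was left out, to -2.81 without WT replicate 1, as did Slc39a4, to 4.61 without WT replicate 2 and Arg1, to 3.22 without 12Q replicate 2. For polyamine metabolism, with 1 library left out, 1 to 3 rose, being 1 without 48Q replicate 1 or 2 or WT replicate 2.

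Mitochondrial folate enzymes did not move together. Aldh1l2, a mitochondrial folate dehydrogenase, was at 1.29 and 2.72 against 69.01 and 60.1 CPM (log2 -5.00 ± 0.46, adjusted p = 0.00348). Mthfd2, of the same compartment, was at 12.8 and 10.9 against 142 and 56.99 CPM (log2 -3.07 ± 0.46, adjusted p = 0.00928). Mthfd1l, also mitochondrial, was higher, at 56.6 and 60.2 against 33.3 and 20.7 CPM (log2 1.11 ± 0.30, adjusted p = 0.04202). In the whole one-carbon list, 3 of 17 tested members rose and 4 fell (median log2 -0.54). Genes of protein export from the ER moved one way: 0 of 42 tested members rose and 12 fell (median log2 -1.01), and the number that fell was 4 to 20 with 1 library left out, being 4 without 12Q replicate 2, 48Q replicate 2 or WT replicate 1 and 5 without 48Q replicate 1 and 20 without WT replicate 2. Sec24d, a cargo adaptor of COPII vesicles, was at 82.2 and 88.2 against 512 and 299 CPM (log2 -2.25 ± 0.32, adjusted p = 0.00818). Lman1, a cargo receptor between ER and Golgi, was at 166 and 126 against 562 and 453 CPM (log2 -1.80 ± 0.27, adjusted p = 0.00961). Hspa5, the ER chaperone BiP, was at 2646 and 1466 against 17749 and 2774 CPM (log2 -2.32 ± 0.92, adjusted p = 0.119), with a log2 value from -3.11 without WT replicate 2, where it passed (adjusted p = 0.0306), to -0.43 without WT replicate 1. Its WT replicates were further apart than the second WT replicate and the first tumor. Aldh1l2 moved by over 1.5-fold when 1 library was left out, to -5.63 without 12Q replicate 2, as did Mthfd2, to -2.26 without WT replicate 1. Mthfd2 lost its call without 12Q replicate 2 (adjusted p up to 0.0508) and Mthfd1l without 12Q replicate 1 or 2, 48Q replicate 1 or 2 or WT replicate 2 (adjusted p up to 0.104). For serine, glycine and folate one-carbon enzymes, with 1 library left out, 1 to 2 rose, being 1 without 12Q replicate 2, 48Q replicate 1 or 2 or WT replicate 2, and 1 to 4 fell, being 1 without 12Q replicate 2 and 2 without 48Q replicate 1 or 2 or WT replicate 1.

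Retinoid genes were among the clearest. Of the list, 10 of 18 tested members rose and 1 fell (median log2 2.40), and the number that rose was 7 to 9 with 1 library left out. Stra6, the membrane receptor for vitamin A uptake, was at 626 and 985 against 2.97 and 6.77 CPM (log2 7.36 ± 0.57, adjusted p = 0.002701), with 48Q at 277 and 262. Rdh10, which oxidises retinol, was at 193 and 249 against 20.1 and 17.8 CPM (log2 3.54 ± 0.25, adjusted p = 0.002701). Dhrs3, which reduces retinal back, was at 113 and 153 against 20.4 and 22.1 CPM (log2 2.65 ± 0.24, adjusted p = 0.00353). Enzymes of both directions rose. Rarg, a retinoic acid receptor of epithelium, was at 132 and 223 against 23 and 30.4 CPM (log2 2.74 ± 0.33, adjusted p = 0.00557). Aldh1a2, which makes retinoic acid, was the exception, at 2.04 and 1.18 against 98.4 and 90.7 CPM (log2 -5.88 ± 0.59, adjusted p = 0.00396). Of prostaglandin synthesis genes and receptors, 2 of 18 tested members rose and 2 fell (median log2 0.23). Ptgs2, the inducible cyclooxygenase, was at 33 and 119.5 against 3.55 and 3.095 CPM (log2 4.52 ± 0.71, adjusted p = 0.0103). Ptgis, prostacyclin synthase, and Abcc4, an exporter of prostaglandins, fell, at 0.222 and 0 against 8.502 and 7.07 CPM (log2 -6.15 ± 1.13, adjusted p = 0.0158) and at 8.69 and 7.61 against 67.8 and 90.8 CPM (log2 -3.28 ± 0.28, adjusted p = 0.00294). Stra6 moved by over 1.5-fold when 1 library was left out, to 8.08 without WT replicate 2, as did Ptgs2, to 5.21 without 12Q replicate 1 and 3.31 without 12Q replicate 2 and Ptgis, to -10.77 without 12Q replicate 1 and -5.10 without 12Q replicate 2. Ptgs2 lost its call without WT replicate 1 or 2 (adjusted p up to 0.0596). For prostaglandin synthesis and receptors, with 1 library left out, 0 to 3 rose, being 1 without 48Q replicate 1 or 2 and 0 without WT replicate 1 or 2.

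Growth factors changed in both directions. In the EGF family 4 of 16 rose and 4 fell, with the number that rose 2 to 4 with 1 library left out, being 2 without 48Q replicate 1 or 2 or WT replicate 2. Egf, a ligand that normal prostate secretes, fell from 1252 and 732 to 5.11 and 1.05 CPM (log2 -8.34 ± 1.08, adjusted p = 0.006604). Btc, betacellulin, another ligand of the receptor, was at 33.5 and 33.9 against 5.79 and 2.48 CPM (log2 3.03 ± 0.49, adjusted p = 0.0112). Areg, amphiregulin, was at 5.22 and 8.45 against 0.0522 and 0.0884 CPM (ratio 97.2, exact 95% interval 33.02 to 473, adjusted p = 0.0115). Erbb4, a receptor of the family, had no count in 12Q and 5.37 and 4.996 CPM in WT, at least 50.9-fold lower (adjusted p = 0.0121). So Egf and Btc moved in opposite directions. Egf moved by over 1.5-fold when 1 library was left out, to -9.83 without 12Q replicate 1 and -7.60 without 12Q replicate 2, as did Btc, to 3.76 without WT replicate 1. Areg lost its call without WT replicate 1 or 2 (adjusted p up to 0.0633). In the FGF list 2 of 21 tested members rose and 8 fell (median log2 -0.27), the number that fell being 4 to 5 with 1 library left out, being 4 without 12Q replicate 1 or 2, 48Q replicate 1 or 2 or WT replicate 2 and 5 without WT replicate 1. Fgf1 was at 45.1 and 21.3 against 246 and 302 CPM (log2 -3.05 ± 0.43, adjusted p = 0.00818). Fgf7, a stromal ligand for epithelium, was at 0.074 and 0 against 6.36 and 10.4 CPM (ratio 0.00393, exact 95% interval 0.000475 to 0.0143, adjusted p = 0.00723). Fgf1 moved by over 1.5-fold when 1 library was left out, to -3.64 without 12Q replicate 1.

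In the BMP and TGFβ pathway, 6 of 33 tested members rose and 7 fell (median log2 0.04). Tgfb1, the ligand, was at 80.6 and 94.6 against 10.1 and 8.89 CPM (log2 3.20 ± 0.25, adjusted p = 0.00274). Bmp2, another ligand, was at 86.5 and 38.4 against 2.97 and 4.69 CPM (log2 4.02 ± 0.51, adjusted p = 0.00618). Ltbp1, which tethers latent TGFβ to the matrix, was at 0.148 and 0.0928 against 7.25 and 21.3 CPM (log2 -6.86 ± 0.84, adjusted p = 0.005801). Chrdl1, a secreted BMP antagonist, was at 0 and 0.0309 against 16.95 and 38.4 CPM (ratio 0.00059, exact 95% interval 1.49e-05 to 0.003295, adjusted p = 0.003399). Gdf10, another ligand of the family, was at 0.037 and 0.0928 against 3.18 and 8.09 CPM (log2 -6.31 ± 0.86, adjusted p = 0.007602). So the ligands Tgfb1 and Bmp2 were higher, and Gdf10, Ltbp1 and Chrdl1 lower. Bmp2 moved by over 1.5-fold when 1 library was left out, to 3.37 without 12Q replicate 1, as did Ltbp1, to -5.88 without WT replicate 2 and Gdf10, to -7.09 without 12Q replicate 2 and -5.49 without WT replicate 2. Of the Notch pathway, 4 of 18 tested members rose and 2 fell (median log2 0.07): Lfng, a glycosyltransferase that modifies the receptor, was at 18.2 and 17.7 against 1.93 and 3.405 CPM (log2 2.75 ± 0.41, adjusted p = 0.00905). Nrarp, a feedback inhibitor, was at 11.4 and 15.3 against 1.36 and 2.25 CPM (log2 2.88 ± 0.46, adjusted p = 0.0108). In Hedgehog signalling, 1 of 15 tested members rose and 5 fell (median log2 -0.05), with the number that fell 0 to 6 with 1 library left out, being 2 without 12Q replicate 1 and 0 without 12Q replicate 2 and 3 without WT replicate 2. Ihh, the epithelial ligand, was at 24.1 and 10.2 against 0.991 and 1.68 CPM (log2 3.67 ± 0.57, adjusted p = 0.0102), while Gli1, the target read in stroma, was at 0.111 and 0.0309 against 0.7302 and 6.72 CPM (log2 -5.68 ± 1.31, adjusted p = 0.0293). Ihh moved by over 1.5-fold when 1 library was left out, to 2.97 without 12Q replicate 1, as did Gli1, to -6.68 without 12Q replicate 1, -5.02 without 12Q replicate 2, -6.53 without WT replicate 1 and -3.33 without WT replicate 2. Gli1 lost its call without 12Q replicate 1 or 2 or WT replicate 2. For BMP and TGF-beta pathway, with 1 library left out, 4 to 6 fell, being 4 without 48Q replicate 1 or 2 or WT replicate 1. For hedgehog pathway, with 1 library left out, 1 to 3 rose, being 3 without WT replicate 2. For Notch pathway, with 1 library left out, 2 to 5 rose, being 2 without 12Q replicate 2.

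Markers of the cells around the epithelium were read as transcript levels, which do not count cells. Each of 12 smooth muscle markers fell (median log2 -6.14), a count of 8 to 12 with 1 library left out, and their summed level was 171 and 154 CPM in 12Q and 2962 and 7729 in WT. Tagln, transgelin, was at 8.51 and 5.17 against 485 and 839 CPM (log2 -6.60 ± 0.64, adjusted p = 0.00372). Cnn1, calponin, was at 0.666 and 0.681 against 236 and 523 CPM (log2 -9.13 ± 0.85, adjusted p = 0.00353). The WT replicates were themselves 2 to 3 times apart. Cnn1 moved by over 1.5-fold when 1 library was left out, to -8.45 without WT replicate 2. Skeletal muscle markers, at 74.6 and 202 CPM in WT and 6.29 and 4.21 in 12Q, moved with these in sum, which in WT was almost all Acta1, the skeletal actin. Of 5 tested, 2 fell and 0 rose in edgeR's test or DESeq2's, with 2 higher at an unadjusted p below 0.05. Without Acta1 the sums were 6.03 and 3.96 CPM in 12Q and 4.225 and 8.84 in WT. The part of such cells in other lower genes was not tested.

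Many fibroblast markers were lower. Of 13, 9 fell and 0 rose, a fallen count of 6 to 9 with 1 library left out, and Dpt and Wt1 had no count in 12Q. The summed level was 217 and 985 CPM in 12Q and 621 and 785 in WT, but C3, the complement protein, which did not pass, was 88.8% of it in 12Q replicate 2. Without C3, a step added after the values were seen, the sums were 175.9 and 110.2 CPM against 470.5 and 722.8. Fbln1, a fibulin of elastic matrix, was at 0.925 and 0.867 against 17.6 and 24.98 CPM (log2 -4.57 ± 0.34, adjusted p = 0.002701), with 48Q at 42.5 and 40.2. Lum, the collagen-binding lumican, was at 0.037 and 0.217 against 18.05 and 22.9 CPM (log2 -7.23 ± 0.59, adjusted p = 0.00289), with 48Q at 63.5 and 56.95. Ogn, osteoglycin, was at 0 and 0.0619 against 44.02 and 35.5 CPM (ratio 0.000856, exact 95% interval 0.000104 to 0.003096, adjusted p = 0.002701), and C7, a complement component of fibroblasts, had no count in 12Q and 13.1 and 18.8 CPM in WT, at least 156-fold lower (adjusted p = 0.00443). Wt1, a factor of mesenchyme, had no count in 12Q and 5.89 and 7.87 CPM in WT, at least 67.5-fold lower (adjusted p = 0.00519). These genes were near 0 in both tumors and clearly counted in 48Q. Lum moved by over 1.5-fold when 1 library was left out, to -6.49 without 12Q replicate 1 and -8.95 without 12Q replicate 2.

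The matrix genes themselves split. Of fibrillar collagens and matrix proteins, 3 of 29 tested members rose and 10 fell (median log2 -1.37), the number that fell being 8 to 11 with 1 library left out. Of basement membrane genes, 3 of 21 tested members rose and 4 fell (median log2 0.17), with the number that rose 0 to 6 with 1 library left out, being 0 without 12Q replicate 2 and 6 without WT replicate 2. Col4a1, a collagen of vessel and epithelial basement membrane, was at 299 and 444 against 25.9 and 86.2 CPM (log2 2.73 ± 0.59, adjusted p = 0.0238), while Lama2, the laminin chain of muscle and nerve, was at 0.666 and 1.73 against 7.09 and 45.01 CPM (log2 -4.43 ± 1.03, adjusted p = 0.0295). Of matrix proteases and their inhibitors, 11 of 29 tested members rose and 2 fell (median log2 1.94), the number that rose being 4 to 13 with 1 library left out, being 7 without 12Q replicate 2 or 48Q replicate 1 or 2 and 5 without WT replicate 1 and 4 without WT replicate 2. Plat, the plasminogen activator, was at 317 and 812 against 20.4 and 8.22 CPM (log2 5.30 ± 0.69, adjusted p = 0.00665). Timp1, a metalloprotease inhibitor, was at 30.7 and 44.4 against 3.13 and 2.25 CPM (log2 3.80 ± 0.40, adjusted p = 0.00435). Col4a1 moved by over 1.5-fold when 1 library was left out, to 2.11 without WT replicate 1 and 3.84 without WT replicate 2, as did Lama2, to -5.28 without 12Q replicate 2, -5.21 without WT replicate 1 and -2.55 without WT replicate 2 and Plat, to 4.47 without 12Q replicate 2 and 6.10 without WT replicate 1. Col4a1 lost its call without 12Q replicate 2 (adjusted p up to 0.0794) and Lama2 without 12Q replicate 1 or 2 or WT replicate 2 (adjusted p up to 0.117). For basement membrane, with 1 library left out, 1 to 6 fell, being 1 without 12Q replicate 1 or WT replicate 2 and 2 without 12Q replicate 2. For fibrillar collagens and matrix, with 1 library left out, 0 to 4 rose, being 1 without 12Q replicate 2 and 0 without 48Q replicate 1 or 2 or WT replicate 1.

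**Figure D4:**
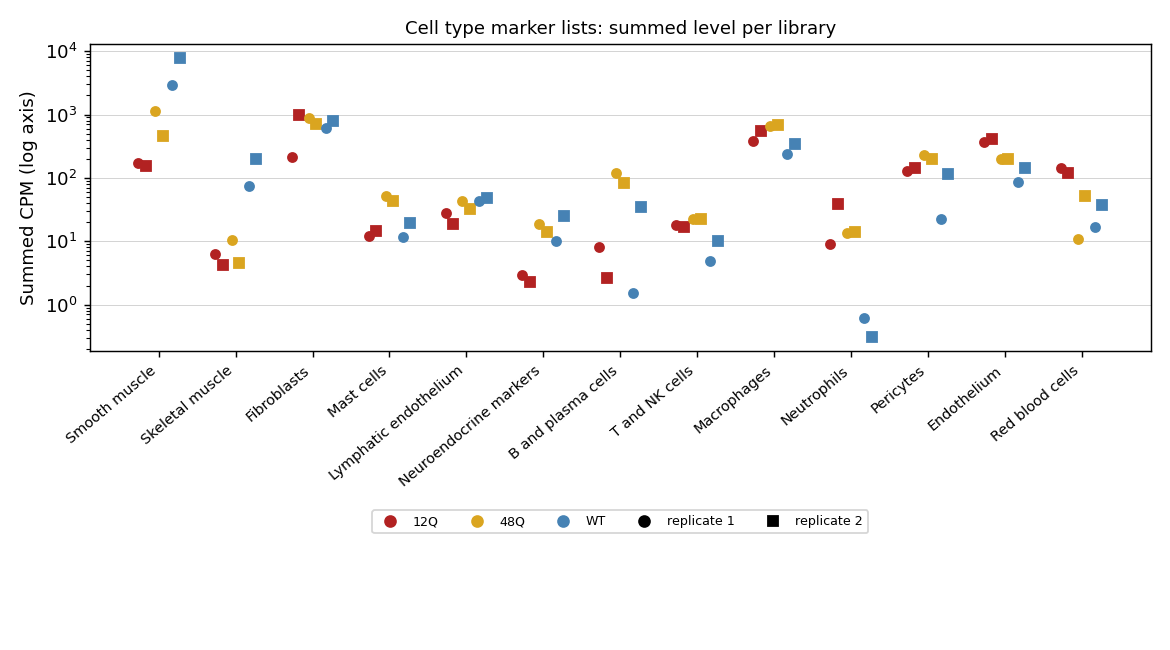
Summed CPM of the tested markers of each cell type (log axis) in every library; red is 12Q, yellow 48Q, blue WT, circles replicate 1 and squares replicate 2. Smooth muscle is lowest in 12Q, endothelium and neutrophil markers are highest there or in 1 of its tumors. Fibroblast markers overlap because of C3, which made up 88.8% of the sum in 12Q replicate 2.

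Blood vessel markers were higher and lymphatic markers lower. Of endothelial markers 5 of 13 rose and 1 fell (median log2 2.36), the number that rose being 2 to 10 with 1 library left out, being 2 without 12Q replicate 1 or 2 and 3 without 48Q replicate 1 or 2 and 10 without WT replicate 2. Esam, an adhesion molecule of endothelial junctions, was at 21.5 and 19.6 against 2.97 and 4.86 CPM (log2 2.39 ± 0.36, adjusted p = 0.009499). Cdh5, the endothelial cadherin, was at 71.2 and 72.4 against 3.39 and 12.8 CPM (log2 3.15 ± 0.59, adjusted p = 0.0166). Emcn, a sialomucin of capillaries and veins, was at 17.4 and 10.8 against 59.6 and 40.1 CPM (log2 -1.82 ± 0.36, adjusted p = 0.0187). Of 6 lymphatic markers 3 fell: Lyve1, the hyaluronan receptor, was at 0.111 and 0.186 against 22.2 and 12.8 CPM (log2 -6.82 ± 0.63, adjusted p = 0.00353). Mmrn1, multimerin, was at 0.074 and 0.124 against 13.1 and 14.9 CPM (log2 -7.07 ± 0.55, adjusted p = 0.002701). Prox1, a factor of lymphatic and some epithelial cells, rose, at 17.4 and 6.72 against 0.209 and 1.15 CPM (log2 4.12 ± 0.85, adjusted p = 0.0218). Cdh5 moved by over 1.5-fold when 1 library was left out, to 2.49 without WT replicate 1 and 4.40 without WT replicate 2, as did Prox1, to 3.32 without 12Q replicate 1, 3.38 without WT replicate 1 and 5.82 without WT replicate 2. Cdh5 lost its call without 12Q replicate 2 (adjusted p up to 0.0555), Emcn without 12Q replicate 2 or WT replicate 1 (adjusted p up to 0.0618) and Prox1 without 12Q replicate 1 or WT replicate 1 (adjusted p up to 0.056).

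Myeloid cells differed by kind. Of 13 macrophage markers 8 rose and 2 fell (median log2 1.94), the number that rose being 5 to 9 with 1 library left out, being 5 without 48Q replicate 2. Adgre1, the F4/80 antigen, was at 17.9 and 20.9 against 4.49 and 3.63 CPM (log2 2.26 ± 0.30, adjusted p = 0.00723). Cd68, a lysosomal protein, was at 24.1 and 43.2 against 5.69 and 4.16 CPM (log2 2.77 ± 0.39, adjusted p = 0.00795). Cd163, a receptor of resident macrophages, was at 0.037 and 0.0309 against 2.399 and 4.64 CPM (ratio 0.00933, exact 95% interval 0.00112 to 0.0343, adjusted p = 0.00554). Neutrophil genes were few in reads: S100a8, calgranulin A, had no count in WT and 3.37 and 4.15 CPM in 12Q, at least 25.99-fold higher (adjusted p = 0.00634). T and NK cell markers summed to 18.02 and 16.6 CPM in 12Q and 4.799 and 9.99 in WT. None of the 11 passed in edgeR's test, 2 were higher at an unadjusted p below 0.05, and DESeq2 called 1 higher. Of 9 mast cell markers tested, 5 fell and 0 rose. Apart from Kit, a receptor that other cells also express, they summed to 1.22 and 1.58 CPM in 12Q and 10.07 and 12.25 in WT. Of the proteases, Mcpt4 had no count in 12Q and 2.82 and 2.65 CPM in WT, at least 26.8-fold lower (adjusted p = 0.00612), and Tpsb2 likewise had none against 1.56 and 1.41 CPM, at least 14.6-fold lower (adjusted p = 0.00723). Both were counted in 48Q, at 6.87 and 4.59 and 6.74 and 5.704 CPM. For mast cells, with 1 library left out, 3 to 4 fell, being 3 without 12Q replicate 2 or 48Q replicate 1 or 2.

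Of chemokines and cytokines 11 of 37 rose and 3 fell, the number that rose being 6 to 17 with 1 library left out, being 17 without 12Q replicate 1 and 6 without 12Q replicate 2 or WT replicate 1 or 2. Cxcl16, a transmembrane chemokine, was at 167 and 166 against 16.6 and 15.5 CPM (log2 3.38 ± 0.21, adjusted p = 0.00256). Cxcl5, which attracts neutrophils, had no count in WT and 3.88 and 9.53 CPM in 12Q, at least 46.4-fold higher (adjusted p = 0.00703). In antigen presentation 6 of 25 rose and 0 fell, among them Ctss, cathepsin S, at 105 and 139 against 21.9 and 15.2 CPM (log2 2.72 ± 0.28, adjusted p = 0.00426). H2-T23, a nonclassical class I molecule, was at 164 and 127 against 41.6 and 29.98 CPM (log2 2.03 ± 0.30, adjusted p = 0.00863). Complement was split, with 3 members higher and 5 lower of 20. For complement, with 1 library left out, 0 to 5 rose, being 5 without 12Q replicate 1 and 1 without 48Q replicate 1 or 2 and 0 without WT replicate 2, and 3 to 6 fell, being 3 without 12Q replicate 1. For MHC and antigen presentation, with 1 library left out, 3 to 6 rose, being 3 without 48Q replicate 1 or 2 or WT replicate 1.

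The Hox genes, which keep positional identity, separated by chromosome cluster; this grouping was made after the values were seen. Over the family, 6 of 27 tested members rose and 7 fell (median log2 -0.98), with the number that fell 2 to 13 with 1 library left out, being 13 without 12Q replicate 1 and 2 without 12Q replicate 2, and the number that rose 2 to 6 with 1 library left out, being 2 without 12Q replicate 2 or 48Q replicate 1 or 2. Of 10 tested genes of the HoxA cluster 6 rose and 0 fell, and the cluster summed to 339 and 309 CPM in 12Q against 90.2 and 83.5 in WT. Of 8 tested genes of the HoxD cluster 7 fell and 0 rose, with 1.85 and 1.30 CPM in 12Q against 42.9 and 73.9 in WT. The 48Q tumors had 56.2 and 30.4 CPM of HoxD, overlapping normal prostate. None of the 9 tested HoxB genes passed in edgeR's test, DESeq2's test or at an unadjusted p below 0.05, and their sum was 363 and 76.5 CPM in 12Q against 352 and 504 in WT. Hoxa10 was at 195 and 129 against 34.9 and 34.1 CPM (log2 2.23 ± 0.30, adjusted p = 0.00703) and Hoxa11 at 38.4 and 47.7 against 5.42 and 6.68 CPM (log2 2.83 ± 0.33, adjusted p = 0.00509). Hoxd13, needed for the form of the prostate, was at 0 and 0.124 against 16.3 and 38.4 CPM (log2 -8.60 ± 1.04, adjusted p = 0.00572). Hoxd13 moved by over 1.5-fold when 1 library was left out, to -7.69 without 12Q replicate 1, -12.55 without 12Q replicate 2 and -7.86 without WT replicate 2.

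**Figure D5:**
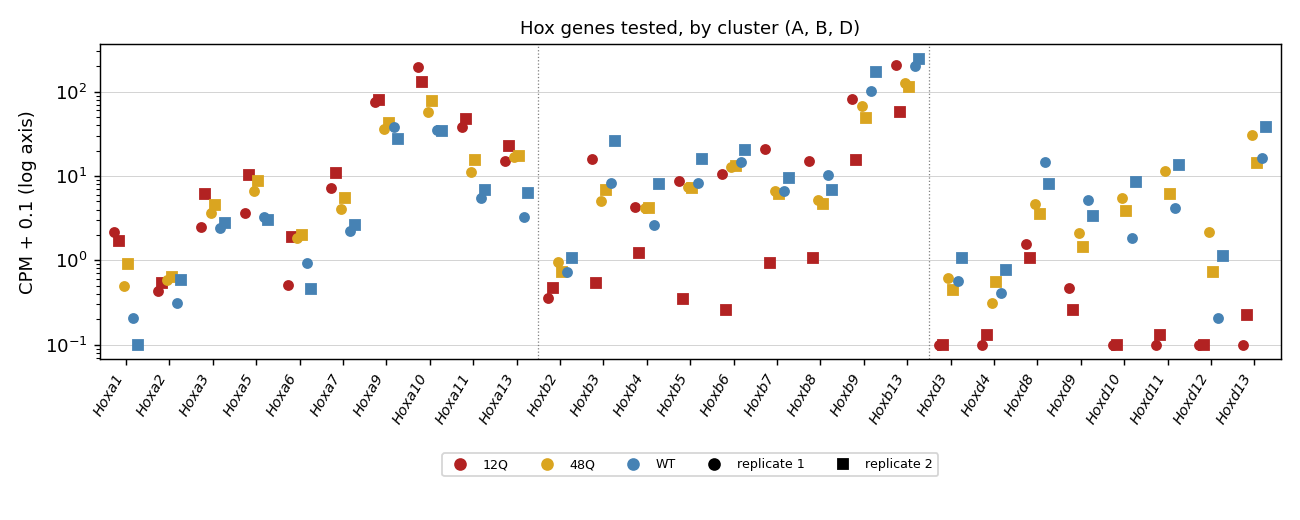
CPM + 0.1 (log axis) in every library for the tested Hox genes of clusters A, B and D, left to right in numerical order; red is 12Q, yellow 48Q, blue WT, circles replicate 1 and squares replicate 2. The 12Q libraries are above WT over most of HoxA and near 0 over most of HoxD, and in HoxB the second 12Q tumor is the low library.

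Among imprinted genes, expressed from the copy of 1 parent, 2 of 21 tested members rose and 8 fell (median log2 -2.16). H19, a fetal noncoding RNA, was 1 of the 2 increases, at 35.6 and 22.7 against 0.156 and 0.133 CPM (log2 7.62 ± 0.69, adjusted p = 0.00344). Ndn, necdin, was at 0.037 and 0.0928 against 1.98 and 3.58 CPM (log2 -5.30 ± 0.78, adjusted p = 0.00867). Sgce, a sarcoglycan, was at 0.407 and 0.279 against 5.06 and 9.68 CPM (log2 -4.42 ± 0.64, adjusted p = 0.0084). Of clock genes 1 of 19 rose and 5 fell. Bhlhe40, a repressor that low oxygen also induces, was at 107 and 167 against 14.7 and 13.1 CPM (log2 3.30 ± 0.30, adjusted p = 0.00339). Cry2, a core repressor, was at 13.8 and 13.5 against 40.8 and 54.6 CPM (log2 -1.81 ± 0.29, adjusted p = 0.0105). The hour of collection is not given in the labels. Ndn moved by over 1.5-fold when 1 library was left out, to -6.07 without 12Q replicate 2. For circadian clock, with 1 library left out, 1 to 3 rose, being 2 without 12Q replicate 1 and 3 without WT replicate 1, and 3 to 5 fell, being 3 without 48Q replicate 1 or 2 or WT replicate 1. For imprinted genes, with 1 library left out, 1 to 3 rose, being 1 without 12Q replicate 2 or WT replicate 1 or 2.

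The direct test of 12Q against 48Q shows where the 2 kinds of tumor differ beyond their spread. It called 152 genes higher (1.01%) and 475 lower (3.16%) of 15050. This count rests on single libraries: it was 78 of all genes, either way, without 12Q replicate 1, 85 without 12Q replicate 2, 40 without 48Q replicate 1 and 104 without 48Q replicate 2, against 627 with all. Both comparisons share the 12Q libraries. Tm4sf1, a tetraspanin-like protein of endothelium and carcinoma, was at 452 and 386 against 5.16 and 6.15 CPM, with 15.5 and 20.2 CPM in the 48Q tumors (log2 4.55 ± 0.28, adjusted p = 0.00813 against 48Q). Apln was at 68.7 and 80.7 CPM in 12Q and 1.11 and 3.28 in 48Q (log2 5.08 ± 0.66, adjusted p = 0.0235 against 48Q), and Tm4sf4, a relative of Tm4sf1, at 115 and 68.9 and 4.396 and 7.19 (log2 3.99 ± 0.53, adjusted p = 0.0246). In each of these the 48Q tumors lay between 12Q and normal prostate. Among the lower genes, Myoc, myocilin of stroma and nerve, had no count in 12Q but 39.3 and 16.03 CPM in 48Q and 8.502 and 13.3 in normal prostate, at least 271-fold lower (adjusted p = 0.0181) than in 48Q. Slco1b2, an organic anion transporter, had no count in 12Q or WT and stood at 8.04 and 13.03 CPM in 48Q, at least 103-fold lower (adjusted p = 0.0255). Pclo, the presynaptic scaffold piccolo, was at 0 and 0.0309 CPM in 12Q and 17.3 and 9.35 in 48Q (ratio 0.00128, exact 95% interval 3.23e-05 to 0.00713, adjusted p = 0.0188), with WT at 10.95 and 28.7. Apln lost its call against 48Q without 12Q replicate 1 or 2 or 48Q replicate 1 (adjusted p up to 0.0886), Tm4sf4 without 12Q replicate 1 or 2 or 48Q replicate 1 or 2 (adjusted p up to 0.123), Myoc without 12Q replicate 1 or 2 (adjusted p up to 0.0573), Slco1b2 without 12Q replicate 1 or 2 or 48Q replicate 1 or 2 (adjusted p up to 0.0973) and Pclo without 12Q replicate 1 or 2 (adjusted p up to 0.0704).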

How the data were processed

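RNA was extracted from fresh tumors or normal prostate with RNA-Bee and, per the labels, sequenced from Kapa RNA HyperPrep libraries. Values are raw read counts per gene, made by the authors with TopHat2 2.0.14, HTSeq 0.6.0 and mm10, per the submitters' processing notes. How multi-mapped reads and strands were handled, and from which annotation, was not given in the sources used here. Each gene's length in kilobases also stands in the deposited table; no level was compared between genes by length. The table pairs symbols with mm10 coordinates.

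Genes were filtered with edgeR 4.0.16 (filterByExpr, minimum count 10, minimum total 15), scaled by TMM and tested in 1 quasi-likelihood fit of all 3 groups (R 4.3.3, 3 residual degrees of freedom, Benjamini-Hochberg adjusted p below 0.05). The submitted groups and replicate numbers came from sample titles. Library totals were 26416181 to 28559546 counts. Fitted log2 fold changes use edgeR's default prior count. Where a group had no count, the fold is a bound from 3 counts per library, and with 1 to 3 counts it is a ratio with an exact 95% interval. That interval is binomial, on counts pooled over the libraries of each group, so it leaves out the scatter between replicates. Alternatives were DESeq2 1.42.0, its size factors, library totals, no filter, the 2 groups alone, a replicate block, each library left out and a prior count of 2. The fit was tested on simulated data.

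Named genes were the genes of the alleles, the 12 largest changes each way (10 CPM or more, no predicted names), the 8 largest CPM gains and losses, up to 5 members per list of 64 lists by adjusted p, and the 8 largest changes each way against 48Q. Members and lists were chosen with earlier results of these data known. Genes with near-identical copies (Ren2, Defa21, keratins, ribosomal proteins, H2 genes) are uncertain, and so are those whose exons overlap another gene, since the strand setting is unknown: Aldh1l2, Bhlhe40, Col4a1, Cry2, Ctnnb1, Cxcl16, Dst, Egf, Ezh2, Gabra4, Gli1, Gpi1, H19, Hoxa11, Kif20a, Krt5, Krt7, Krt80, Lama2, Lef1, Lox, Mmp7, Mt2, Myoc, Nrarp, Pclo, Pdgfra, Pi16, Pnpla1, Ppp1r1b, Prom1, Prox1, Ptgis, Ptgs1, Rpl30, Sbsn, Slc30a4, Slc7a7, Sox4, Sp6, Tagln, Tgm4 and Tle2. Promoters come from RefSeq (GRCm38.p6), 1 window per tested gene, 11547 matched of 15050. Sequences of encoded proteins were not used here, and 6 of the genes named by the rule are not reported here.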

Additional observations from a re-analysis of the deposited data

Results flagged for a closer look

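For 24 of the 295 reported genes chosen by the naming rule, the 12Q and 48Q tumors lay on opposite sides of normal prostate in every library, and the direct test of 12Q against 48Q passed. The WT libraries are shared by both sides. Of the 24 genes, 18 were lower in 12Q. Over all 15050 genes the direct test called 475 lower and 152 higher, so most calls against 48Q were lower in any case. The rule was not run over all genes, so no background share can be given. Some of the named genes were picked for a large difference from 48Q. The 24 are therefore read as single genes. Values are CPM, and each p is edgeR's adjusted p of 12Q against 48Q in the fit of all libraries. These calls rest on single libraries. Leaving out any 12Q or 48Q library left fewer fibroblast and mast cell markers called lower than in 48Q.

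Genes of fibroblasts, matrix and complement made up 9 of the 18 lower genes. Lum was at 0.037 and 0.217 in 12Q, 18.05 and 22.9 in WT and 63.5 and 56.95 in 48Q (adjusted p = 0.008134), and Pdgfra, a receptor of fibroblasts, at 0.851 and 1.11, 23.4 and 42.2 and 81.99 and 63.6 (adjusted p = 0.008134). Lox, which cross-links collagen, was at 0.222 and 0.371, 8.45 and 6.06 and 24.8 and 26.2 (adjusted p = 0.008134). Further matrix and fibroblast genes were Fbln1 (adjusted p = 0.008134), Pi16 (adjusted p = 0.016488), Sfrp1 (adjusted p = 0.016488), Gdf10 (adjusted p = 0.021622) and Myoc (adjusted p = 0.018105). The complement regulator Serping1 (adjusted p = 0.027739) followed, at 4.44 and 14.4 in 12Q, 80.02 and 76.5 in WT and 130.3 and 125 in 48Q. The 12Q levels of these genes were below every other library.

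Mast cell genes formed a second group of lower genes: Mcpt4 (adjusted p = 0.020472), Tpsb2 (adjusted p = 0.018789), Cpa3 (adjusted p = 0.024556), Cma1 (adjusted p = 0.02611) and Ms4a2 (adjusted p = 0.024556). Cpa3, a carboxypeptidase, was at 0.074 and 0 in 12Q, 2.97 and 2.34 in WT and 8.55 and 5.65 in 48Q. Ms4a2 had no count in 12Q and only 0.156 and 0.177 CPM in WT, close to the level that a count of 0 allows. Its call against WT was lost whichever library was left out. The remaining lower genes were Gabra4, a GABA receptor subunit (adjusted p = 0.016488), Dpyd, of pyrimidine breakdown (adjusted p = 0.012545), Mt3, a metallothionein (adjusted p = 0.027919), and the imprinted Peg3 (adjusted p = 0.033658). Gabra4 was at 38.1 and 18.1 in 48Q and had no count in 12Q.

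The 6 genes higher in 12Q than in WT and lower in 48Q than in WT were Angpt2 (adjusted p = 0.018789), Gpi1 (adjusted p = 0.024556), Mthfd1l, a mitochondrial folate enzyme (adjusted p = 0.028948), Ptgs1, a cyclooxygenase (adjusted p = 0.041935), Rpl30, a ribosomal protein (adjusted p = 0.023491), and Sat1, of polyamine breakdown (adjusted p = 0.036473). Angpt2 was at 30.9 and 53.6 in 12Q, 11.5 and 10.5 in WT and 1.596 and 2.82 in 48Q, and Ptgs1 at 505 and 424, 201 and 205 and 116 and 181. Whichever library was left out, Ptgs1 lost its call against WT.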

How the results depend on the processing

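The 12Q and WT counts of calls, 1687 higher and 1683 lower, moved with the choice of scaling and of samples. Scaling by library totals gave 3266 higher and 1032 lower. Fitting only the 2 compared groups gave 1006 and 874. With 1 library left out, calls ranged from 959 to 1699 higher and from 859 to 1371 lower. DESeq2 called 2409 and 2507. For 12Q against 48Q the 627 calls became 2481 with DESeq2 and ranged from 40 to 936 with 1 library left out. Leaving out either 48Q library keeps the 12Q and WT counts but leaves fewer degrees of freedom. It also changes the spread, which the fit pools over the 3 groups. The 48Q replicates were closer to each other, with a median absolute log2 difference of 0.1675 against 0.49 in 12Q and 0.5076 in WT. The p-values of 12Q against WT thus rest in part on the spread of 48Q. Each of the 3370 calls kept its direction in every alternative run, which groups that do not overlap largely fix in advance. DESeq2 shared 3341 of them and the fit without 12Q replicate 2 shared 1680. Of 24 cases in which a gene list had no member called in a direction by edgeR, 10 had a member at an unadjusted p below 0.05 and 8 had one called by DESeq2. DESeq2's size factors, no low count filter and a prior count of 2 moved none of the 3 counts by over 1.5 times.

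A fit with the replicate number as a block gave 1559 higher, 1507 lower and 605 calls against 48Q. The labels do not say that a number marks a shared mouse or day, and deviations of same-numbered libraries correlated at 0.134 (12Q and WT), 0.0252 (12Q and 48Q) and -0.104 (48Q and WT), so the numbers were not taken as pairs.

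With 2 libraries a group, small changes are under the precision of this design. A count of 0 allows up to 0.0928 to 0.156 CPM in these 4 libraries, for counting error only. The cause of each moved count was not tested unless stated.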

Other observations

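Further lists describe what else the tissue held. Luminal epithelium markers hardly passed: 1 of 12 tested members rose and 1 fell (median log2 0.22), with summed levels of 10250 and 9545 CPM in 12Q and 13250 and 5515 in WT. Of urothelium markers, 1 of 6 tested members rose and 1 fell (median log2 0.32): Upk2, a plaque protein, was at 10.3 and 14.2 against 0.991 and 1.503 CPM (log2 3.29 ± 0.43, adjusted p = 0.00678). Among markers of Schwann cells and nerves, 2 of 13 tested members rose and 3 fell (median log2 -2.97); Mal, a myelin and epithelial membrane protein, was at 451 and 410.2 against 143 and 146 CPM (log2 1.58 ± 0.23, adjusted p = 0.00902), while Scn7a, a channel of glia, was at 0 and 0.0619 against 5.37 and 15.7 CPM (ratio 0.00308, exact 95% interval 0.000371 to 0.0112, adjusted p = 0.00612). Of 3 neuroendocrine markers tested, 2 fell and 0 rose. Of seminal vesicle secretions, a possible trace of the neighbouring gland, 2 of 10 tested rose and 0 fell, with 1 lower at an unadjusted p below 0.05 and 0 lower in DESeq2. Ceacam10 was at 1.702 and 43.6 CPM and Svs4 at 0.629 and 1.98, against 0 and 0 and 0 and 0.0442. Both genes lost their call without WT replicate 1 or 2. Without Serpine2, which other tissues also express, the list summed to 3.26 and 46.1 CPM in 12Q and 0.782 and 0.884 in WT. Hemoglobin and other red blood cell genes were at 144 and 120.3 and 16.7 and 37.98 CPM and none of 3 passed in edgeR's test (2 higher at an unadjusted p below 0.05 and in DESeq2), nor any of the 4 tested markers of B and plasma cells, at 8.14 and 2.6 and 1.51 and 35.1 (1 lower at an unadjusted p below 0.05 and in DESeq2). For Schwann cells and nerves, with 1 library left out, 1 to 3 fell, being 1 without 12Q replicate 1 or 2 or WT replicate 2.

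Metabolic groups outside glycolysis were mixed. Of amino acid transporters, 5 of 24 tested members rose and 6 fell (median log2 -0.16). Slc7a7, an exporter of cationic amino acids, was at 13.1 and 28.2 against 0.939 and 2.25 CPM (log2 3.68 ± 0.62, adjusted p = 0.0119). Of glutathione and antioxidant enzymes, 5 of 33 tested members rose and 3 fell (median log2 -0.12); Hmox1, heme oxygenase, was at 31.7 and 60.3 against 8.61 and 3.98 CPM (log2 2.87 ± 0.50, adjusted p = 0.0136). Gclc, which starts glutathione synthesis, was at 25.2 and 27.3 against 109 and 60.3 CPM (log2 -1.69 ± 0.33, adjusted p = 0.0183). Of sterol and fatty acid synthesis genes, 1 of 21 tested members rose and 0 fell (median log2 0.50). The Y-linked genes Ddx3y and Uty were counted in all libraries but Ddx3y was at 34.2 and 34.8 against 309 and 163 CPM (log2 -2.78 ± 0.35, adjusted p = 0.00634) and Uty at 49.2 and 30.4 against 159.6 and 93.1 CPM (log2 -1.67 ± 0.36, adjusted p = 0.0246). Slc7a7 moved by over 1.5-fold when 1 library was left out, to 3.02 without 12Q replicate 2 and 4.45 without WT replicate 2, as did Hmox1, to 3.53 without WT replicate 1. Gclc lost its call without 12Q replicate 1 or 2 (adjusted p up to 0.0681) and Uty without 12Q replicate 2 or WT replicate 1 (adjusted p up to 0.0855). For amino acid transporters, with 1 library left out, 1 to 5 rose, being 3 without 12Q replicate 2 and 1 without WT replicate 1 and 2 without WT replicate 2, and 1 to 6 fell, being 2 without 12Q replicate 1 or 48Q replicate 1 or 2 and 1 without 12Q replicate 2. For glutathione and antioxidant enzymes, with 1 library left out, 1 to 5 rose, being 3 without 48Q replicate 1 or 2 and 1 without WT replicate 1 or 2, and 2 to 6 fell, being 6 without 12Q replicate 1. For sterol and fatty acid synthesis, with 1 library left out, 0 to 3 rose, being 3 without 12Q replicate 1 and 0 without 12Q replicate 2 or 48Q replicate 1 or 2.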
